A study of Rattus norvegicus with 36 samples.

Results

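The expression of 9 genes of hepatic methionine metabolism was followed in rat liver across 5 doses of a flame retardant. The genes were Gnmt, Mat1a, Pemt, Ahcy, Bhmt, Cbs, Cth, Cdo1 and Shmt1, and each was read by 1 probe set, so that they made up 9 of the 31042 probe sets tested and 9 of the 14217 genes named on the array. Gnmt was chosen by its lower values at 54.1 and 541 mg/kg in these samples, and the other 8 by their place in the same pathway. The values of Gnmt at those doses are therefore a description and carry no test.

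The study gave hexachlorocyclopentadienyl-dibromocyclooctane (HCDBCO), a brominated and chlorinated flame retardant, to male Harlan Sprague Dawley rats that were 7 weeks old at the start. Rats received corn oil alone (vehicle) or HCDBCO in corn oil daily by gavage for 5 days, at 0.05 mg/kg, 0.54 mg/kg, 5.41 mg/kg, 54.1 mg/kg or 541 mg/kg. All groups ate the same diet. The left liver lobe was taken 1 day after the last dose, and 36 samples, 6 for each of 6 groups, were each hybridised to a 1-colour Affymetrix 3′ array. The deposited values are on a log2 scale, in which 1 unit is a doubling, and come from RMA, a method that combines the probes of a set after adjusting all arrays to a common distribution. The labels give replicate numbers but no animal numbers, so p-values measure only the spread between these samples, which may be technical. Precision depends on the spread of each gene and on the 6 arrays of each group.

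The methionine cycle turns methionine into S-adenosylmethionine, the methyl donor of the cell, and recovers the product left after methyl transfer. Liver is the main site of the cycle. Mat1a makes S-adenosylmethionine in hepatocytes. Gnmt transfers its methyl group to glycine, which disposes of an excess, and Pemt uses it to make phosphatidylcholine. Both leave S-adenosylhomocysteine, which Ahcy splits to homocysteine. Homocysteine is either remethylated by Bhmt, with betaine as donor, or passed through Cbs and Cth to cysteine, which Cdo1 oxidises. Shmt1 interconverts serine and glycine in the cytosol, with folate as the carrier of the carbon unit.

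The promoters of 3 genes are shown here: Gnmt and Bhmt, with the lowest differences from vehicle at 541 and 54.1 mg/kg, and Cth. Bhmt passed none of the main tests of dose, and no link between these letters and the levels was tested. Each run covers 250 bases before and 50 bases from the annotated start, in the gene's own direction, from RefSeq on build GRCr8. Gnmt lies at chr9:21752032-21752331 on the plus strand, Bhmt at chr2:26614380-26614679 on the minus strand and Cth at chr2:249661017-249661316 on the minus strand. Capitals mark matches, on either strand, to 7 motifs: the TATA box (TATAAA), the CCAAT box (CCAAT), the GC box of Sp1-type factors (GGGCGG), the E-box (CACGTG), a glucocorticoid receptor element (AGAACA), a nuclear receptor element (AGGTCA) and the core read by the aryl hydrocarbon receptor (GCGTG). No matches overlap in these runs.
Gnmt: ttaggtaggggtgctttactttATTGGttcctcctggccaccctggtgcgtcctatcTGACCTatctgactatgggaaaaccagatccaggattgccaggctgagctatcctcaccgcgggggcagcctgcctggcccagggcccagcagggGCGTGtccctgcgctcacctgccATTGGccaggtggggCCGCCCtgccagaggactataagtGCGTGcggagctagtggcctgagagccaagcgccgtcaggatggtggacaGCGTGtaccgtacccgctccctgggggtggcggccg
Bhmt: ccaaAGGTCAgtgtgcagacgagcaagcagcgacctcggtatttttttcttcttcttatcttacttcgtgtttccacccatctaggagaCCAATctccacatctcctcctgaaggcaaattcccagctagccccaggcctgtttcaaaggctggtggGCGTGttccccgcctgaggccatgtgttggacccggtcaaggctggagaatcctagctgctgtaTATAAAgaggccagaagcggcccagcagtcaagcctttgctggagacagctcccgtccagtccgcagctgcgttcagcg
Cth: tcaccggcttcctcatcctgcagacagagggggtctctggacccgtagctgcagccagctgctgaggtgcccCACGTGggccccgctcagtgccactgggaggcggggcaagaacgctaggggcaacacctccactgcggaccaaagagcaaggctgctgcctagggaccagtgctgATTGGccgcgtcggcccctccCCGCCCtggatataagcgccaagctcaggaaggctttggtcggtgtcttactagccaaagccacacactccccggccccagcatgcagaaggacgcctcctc
The window of Gnmt holds ATTGG, which is CCAAT on the other strand, with its first base 75 bases before the start, and the window of Cth holds it 73 bases before the start. Gnmt also holds a second ATTGG at 228 bases before the start, AGGTCA on the other strand at 193, and GCGTG at 98 and 36 bases before the start and at base 15 counted from it. Cth also holds CACGTG at 178 bases before it. Both windows hold CCGCCC, which is GGGCGG on the other strand, at 60 bases before the start in Gnmt and 52 in Cth. Bhmt is the member whose window holds TATAAA, 29 bases before the start, a motif found in 14.2% of all 33469 promoter windows of the table. Of the 8 members with a window in the table, 6 hold CCAAT, against 37.5% of all windows, and 5 hold GGGCGG, against 33.1%. AGGTCA was found in 4 of the 8 (16.2% of all windows), GCGTG in 3 (29.7%), CACGTG in 2, Cth and Shmt1 (6.4%), and AGAACA in 1, Mat1a (20.7%). These are matches of letters and were not tested as binding sites.

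All 9 probe sets were bright. Their means over the 36 samples lay at or above the 95.2nd percentile of all probe sets, so each passed the filter on dim probe sets (a mean of at least 5). Of 10 hepatocyte markers, 9 were measured, and their mean level was 13.92 to 13.98 at 541 mg/kg, 13.97 to 14.00 at 54.1 mg/kg and 13.97 to 14.03 in vehicle livers. The 3 T cell markers were all dim, with a mean level of 4.36 to 4.68 at 541 mg/kg, 4.42 to 4.68 at 54.1 mg/kg and 4.33 to 4.64 in vehicle livers. One array, replicate 5 at 54.1 mg/kg, stood apart, with a lower quartile of 3.79 and an upper quartile of 6.94, against 3.62 to 3.72 and 7.03 to 7.13 on the other 35 arrays. The differences of Gnmt, Mat1a, Bhmt, Cbs and Shmt1 from vehicle at that dose are also given without it.

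Gnmt, the methyltransferase of the cycle, was lower at both high doses and near the vehicle level at the 3 lower ones. The lowest, median and highest values were 11.30, 11.39 and 11.64 at 541 mg/kg, 11.20, 11.46 and 11.68 at 54.1 mg/kg, and 11.81, 11.94 and 12.00 in vehicle livers. All 12 samples of the high doses thus lay below every vehicle sample. Of all probe sets, 0.351% had all 6 samples at 541 mg/kg below all 6 of vehicle, and 0.37% at 54.1 mg/kg. The mean was 11.44 ± 0.153 at 541 mg/kg and 11.43 ± 0.199 at 54.1 mg/kg, against 11.91 ± 0.0785 in vehicle livers (SD, n = 6 each). The log2 difference from vehicle was -0.47 at 541 mg/kg (95% interval -0.66 to -0.28) and -0.48 at 54.1 mg/kg (-0.67 to -0.29), which are 0.724 and 0.718 times the vehicle level. These intervals take no account of the choice of Gnmt for this fall and are not a test. Without replicate 5, the difference at 54.1 mg/kg was -0.43. The share of all probe sets past a false discovery rate (FDR) of 5% was 0.155% for 541 mg/kg and 0.0741% for 54.1 mg/kg. Nothing is read from those shares for Gnmt, whose choice used these contrasts. In whole tissue, fewer cells of a type and less RNA per cell cannot be told apart.

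**Figure D1:**
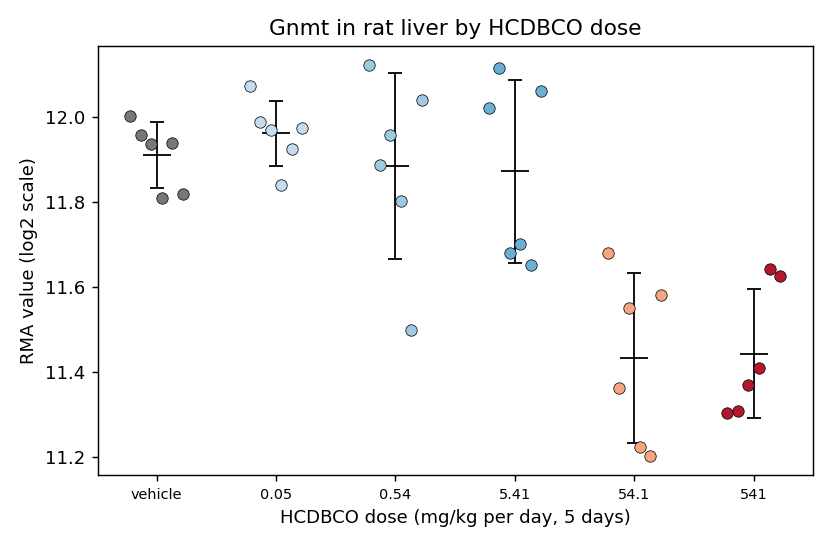
Gnmt RMA values (log2 scale) in each of the 36 liver samples by HCDBCO dose, with the group mean and SD (n = 6 per group). The 12 samples at 54.1 and 541 mg/kg lie between 11.20 and 11.68, below all 6 vehicle samples. Such a separation was found for 0.351% of all probe sets at 541 mg/kg and 0.37% at 54.1 mg/kg.

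The 3 lower doses bracketed the vehicle level. Gnmt averaged 11.96 ± 0.0770 at 0.05 mg/kg, 11.88 ± 0.219 at 0.54 mg/kg and 11.87 ± 0.215 at 5.41 mg/kg (SD, n = 6 each). The spread at 0.54 and 5.41 mg/kg was wider than at 0.05 mg/kg and in vehicle livers: at 5.41 mg/kg 3 of 6 samples lay below every vehicle sample and the other 3 above every one. The log2 differences from vehicle were 0.05, -0.03 and -0.04 at 0.05, 0.54 and 5.41 mg/kg (limma, adjusted p = 1.00, 0.999 and 0.994), with intervals that reached -0.14 to 0.24, -0.22 to 0.17 and -0.23 to 0.15. No probe set of the array passed at these doses (0% each; unadjusted p under 0.05 in 3.02%, 4.18% and 4.83% of all probe sets). These comparisons share their vehicle samples with the contrasts that chose Gnmt. Across the 18 samples of the lower doses the values ran between 11.50 and 12.12, and 2 of the 18 were at or below the highest sample of the high doses, while 7 of the 12 samples at the high doses were below all 18. The difference between 541 and 54.1 mg/kg was 0.01 (interval -0.18 to 0.20), given without a test because the choice of Gnmt used both groups. In that contrast 0.00322% of all probe sets, 1 of 31042, passed.

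Of the other 8 members, none passed the test at 541 or 54.1 mg/kg against vehicle. At an unadjusted p under 0.05 there were 5 of 8 at 541 mg/kg and 3 of 8 at 54.1 mg/kg, against 9.07% and 9.20% of all probe sets. Their median log2 difference was -0.15 at 541 mg/kg and -0.09 at 54.1 mg/kg, where the median over all probe sets was 0.0076 and 0.0096. At each of these doses 6 of the 8 had a mean below vehicle, where 46.7% and 45.9% of all probe sets were lower. At 0.05, 0.54 and 5.41 mg/kg it was 7, 6 and 5 of the 8 (49.5%, 47.8% and 47.9% of all probe sets), so the number of lower means did not increase with dose. Both comparisons use the same vehicle samples. At 0.05, 0.54 and 5.41 mg/kg the members' median differences from vehicle were -0.02, -0.04 and -0.03, with 0 of 8 past the FDR and 0 of 8 at an unadjusted p under 0.05 at each dose.

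**Figure D2:**
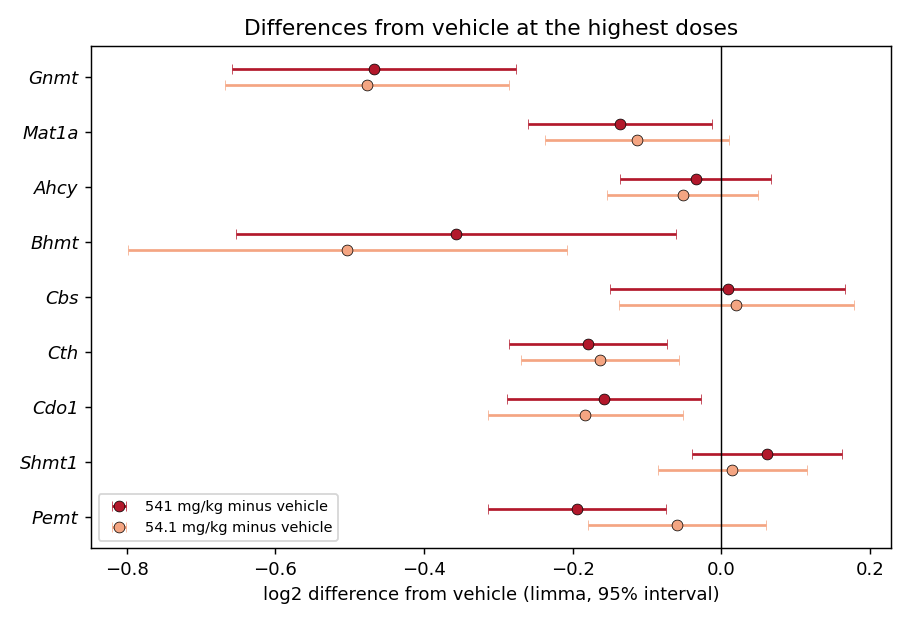
Log2 difference from vehicle at 541 and at 54.1 mg/kg for each of the 9 genes, from limma, with 95% intervals. Gnmt and Bhmt have the lowest estimates at both doses, and the intervals of Bhmt are the widest. Gnmt was chosen for its lower values at these doses, so its intervals are not a test.

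Mat1a, the S-adenosylmethionine synthase of hepatocytes, ran between 12.08 and 12.38 at 541 mg/kg (median 12.16), between 12.06 and 12.33 at 54.1 mg/kg (median 12.22) and between 12.17 and 12.43 in vehicle livers (median 12.32). The groups overlap, with 3 of 6 samples below every vehicle sample at each high dose. The difference from vehicle was -0.14 at 541 mg/kg (adjusted p = 0.475) and -0.11 at 54.1 mg/kg (adjusted p = 0.589), or -0.08 at 54.1 mg/kg without replicate 5.

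Pemt, which methylates phosphatidylethanolamine, differed most from vehicle at 541 mg/kg. It had 11.12, 11.22 and 11.32 (lowest, median and highest) at 541 mg/kg, 11.24, 11.35 and 11.51 at 54.1 mg/kg, and 11.31, 11.44 and 11.52 in vehicle livers. At 541 mg/kg 4 of 6 samples were below every vehicle sample, and at 54.1 mg/kg 2 of 6. The difference from vehicle was -0.19 at 541 mg/kg (interval -0.31 to -0.07; adjusted p = 0.201) and -0.06 at 54.1 mg/kg (adjusted p = 0.814), or -0.04 at 54.1 mg/kg without replicate 6. Between 541 and 54.1 mg/kg it was -0.13 (adjusted p = 0.999), with the unadjusted p of 0.0285 the only one under 0.05 among the 8 members in that contrast, where 4.76% of all probe sets had one.

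Ahcy, the hydrolase of S-adenosylhomocysteine, stayed within a narrow band. Its medians were 12.27 at 541 mg/kg, 12.22 at 54.1 mg/kg and 12.27 in vehicle livers, and the differences from vehicle were -0.03 (interval -0.14 to 0.07; adjusted p = 0.891) and -0.05 (interval -0.15 to 0.05; adjusted p = 0.802). The first changed sign to 0.0012 without replicate 4 at 541 mg/kg.

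Bhmt, the betaine-dependent remethylation enzyme, had the widest spread of the 9. It ran between 11.85 and 12.51 at 541 mg/kg (median 12.23), between 11.54 and 12.44 at 54.1 mg/kg (median 12.12) and between 12.28 and 12.90 in vehicle livers (median 12.55). The high doses overlap the vehicle range, with 3 of 6 samples at 541 mg/kg and 4 of 6 at 54.1 mg/kg below every vehicle sample. The difference from vehicle was -0.36 at 541 mg/kg (interval -0.65 to -0.06; adjusted p = 0.414) and -0.50 at 54.1 mg/kg (interval -0.80 to -0.21; adjusted p = 0.214), or -0.40 at 54.1 mg/kg without replicate 5. The SD within groups was 0.269 for Bhmt, at the 95.2nd percentile of all probe sets, against a median of 0.139 over all of them and 0.168 for Gnmt. At 0.05, 0.54 and 5.41 mg/kg the medians of Bhmt were 12.48, 12.47 and 12.35.

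Cbs, the first enzyme of transsulfuration, had medians of 10.53 at 541 mg/kg, 10.54 at 54.1 mg/kg and 10.59 in vehicle livers. Its differences from vehicle were 0.01 (interval -0.15 to 0.17; adjusted p = 0.985) and 0.02 (interval -0.14 to 0.18; adjusted p = 0.967), and the sign turned when single samples were left out. Without replicate 5 at 54.1 mg/kg the difference there was 0.07. Cth, the second enzyme, was separated from vehicle at both high doses. The lowest, median and highest values of Cth were 12.74, 12.85 and 12.87 at 541 mg/kg, 12.79, 12.85 and 12.93 at 54.1 mg/kg, and 12.94, 13.03 and 13.05 in vehicle livers. All 6 samples at each high dose were below every vehicle sample, as was the case for 0.351% of all probe sets at 541 mg/kg and 0.37% at 54.1 mg/kg. The difference from vehicle was -0.18 at 541 mg/kg (interval -0.29 to -0.07; adjusted p = 0.188) and -0.16 at 54.1 mg/kg (interval -0.27 to -0.06; adjusted p = 0.28), neither past the FDR. At 0.05, 0.54 and 5.41 mg/kg the medians of Cth were 13.00, 13.06 and 12.98, and 2 of 6 samples in each group lay below every vehicle sample, while 1, 3 and 1 of 6 lay above every one.

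Cdo1, which oxidises cysteine, ran between 12.76 and 13.13 at 541 mg/kg (median 12.92), between 12.81 and 12.96 at 54.1 mg/kg (median 12.93) and between 12.95 and 13.19 in vehicle livers (median 13.12). At each high dose 4 of 6 samples were below every vehicle sample. The difference from vehicle was -0.16 at 541 mg/kg (adjusted p = 0.414) and -0.18 at 54.1 mg/kg (adjusted p = 0.352). Shmt1, the cytosolic serine hydroxymethyltransferase, had differences of 0.06 (interval -0.04 to 0.16; adjusted p = 0.761) at 541 mg/kg and 0.01 (interval -0.09 to 0.12; adjusted p = 0.963) at 54.1 mg/kg. The difference at 54.1 mg/kg changed sign when single samples were left out and was 0.04 without replicate 5, and that at 541 mg/kg was 0.04 without replicate 3.

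**Figure D3:**
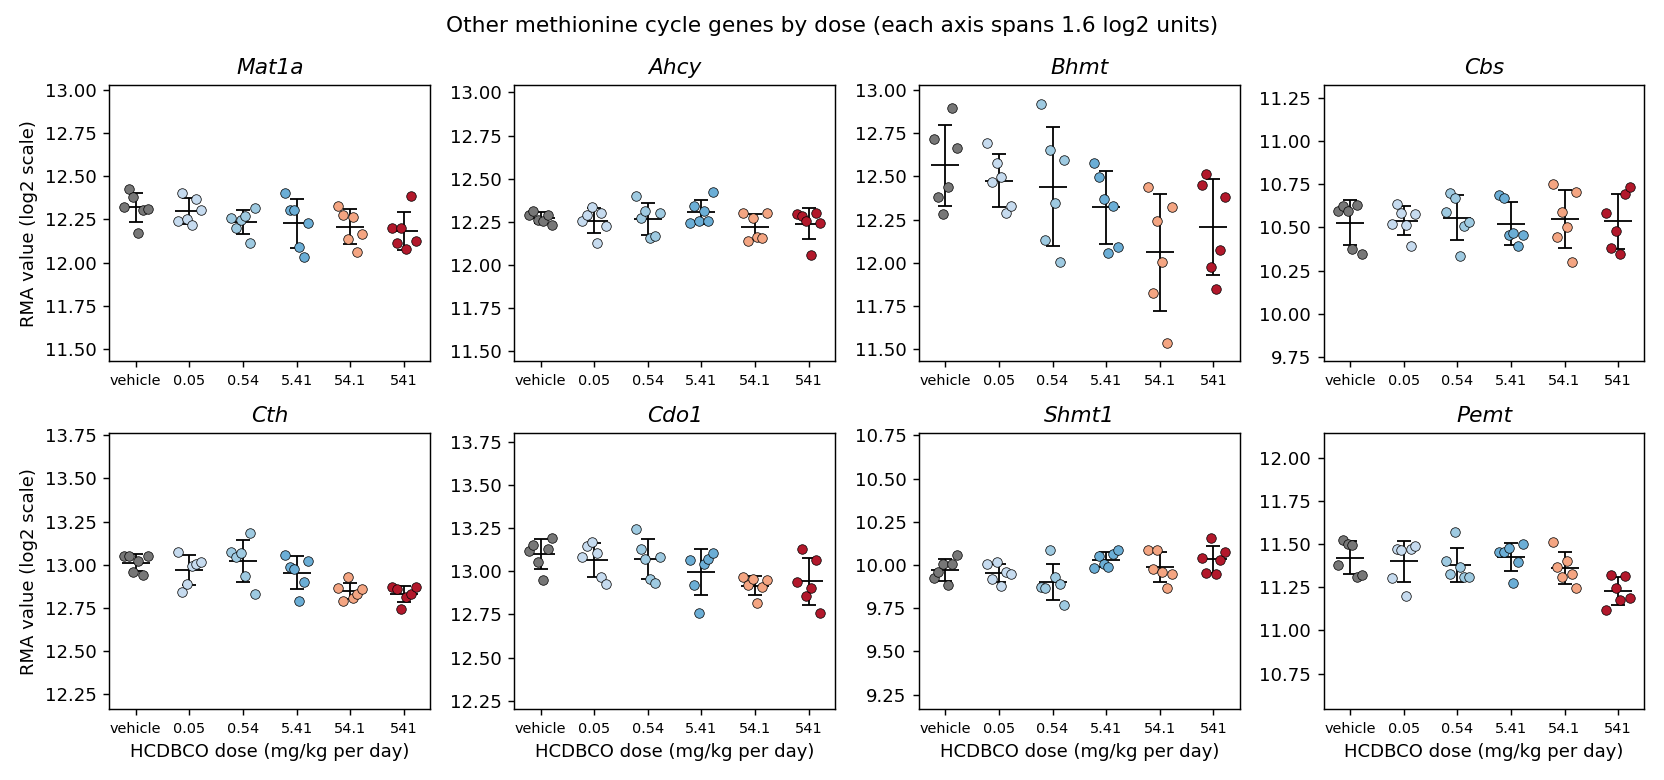
RMA values (log2 scale) of the 8 other methionine cycle genes by HCDBCO dose, with each sample as a point and the group mean and SD (n = 6 per group). Cth at 54.1 and 541 mg/kg lies below all 6 vehicle samples, and Bhmt has the widest spread.

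A linear trend over the order of the 6 groups, with scores from 0 for vehicle to 5 for 541 mg/kg, was fitted to the same values. Cth fell by 0.04 per step on the log2 scale (standard error 0.00882; limma, adjusted p = 0.0312), and it was the 1 of 8 members past the FDR. Such a slope averages over all steps and need not mean an even fall. The means of Cth were 13.01 in vehicle livers and 12.97, 13.02 and 12.95 at 0.05, 0.54 and 5.41 mg/kg. At 54.1 and 541 mg/kg they were 12.85 and 12.83. The trend passed for 0.715% of all probe sets in either direction and for 0.374% downward. In 6 of 36 fits that each left out 1 sample the trend of Cth did not pass: replicates 1, 3, 4 and 5 at 541 mg/kg (adjusted p = 0.054, 0.057, 0.0623 and 0.0509) and replicates 1 and 4 of vehicle (adjusted p = 0.0596 and 0.0503). Bhmt had -0.09 per step (adjusted p = 0.0753), Cdo1 -0.04 (0.0985), Pemt -0.03 (0.168) and Mat1a -0.03 (0.232). Gnmt had -0.11 per step, given without a test. When the mean of the 2 high doses was set against the mean of the 3 lower ones, 0 of 8 members passed, against 0.287% of all probe sets, and 4 of 8 had an unadjusted p under 0.05, against 8.61% of them. Cth came nearest, with -0.14 (adjusted p = 0.0522).

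Within a dose group the members partly varied together. For each sample the deviation from its group mean was taken, and the deviations of Gnmt were correlated with those of the other members over 36 samples, a comparison that the choice of Gnmt did not use. Cbs had the highest correlation (Pearson r = 0.65, Spearman rho = 0.67; permutation within groups, p adjusted over 8 members = 0.00168 and 0.00136), and it was 0.66 without the 2 samples farthest from the median of Gnmt. Ahcy followed (r = 0.60, rho = 0.59; adjusted permutation p = 0.00428 and 0.00544; 0.54 without those samples). Bhmt and Mat1a both had r = 0.51 with adjusted permutation p = 0.0128 (rho = 0.46 and 0.47, each with 0.0275; 0.38 and 0.42 without those samples). Over the other 31041 probe sets the r of Gnmt had a median of -0.0064 and a central 95% range of -0.40 to 0.46. A correlation at or above that of Cbs was found for 0.09% of them, of Ahcy for 0.37%, of Bhmt for 1.25% and of Mat1a for 1.35%. That background includes dim probe sets, whereas all members are bright: 15986 of the 31042 tested had a mean of at least 5. Among 9763 genes with such a mean, Cbs, Ahcy, Bhmt and Mat1a ranked 17th, 79th, 264th and 283rd by this r. With the replicate numbers of the labels added as a block, Cbs (r = 0.55, adjusted permutation p = 0.0205) and Ahcy (0.46, 0.0444) still passed. Mat1a (0.42, 0.0891) and Bhmt (0.31, 0.165) then did not.

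Cdo1 (r = 0.31, rho = 0.28; adjusted permutation p = 0.157 and 0.185), Pemt (0.26, 0.24; 0.187 and 0.185), Shmt1 (0.24, 0.25; 0.273 and 0.185) and Cth (0.10, 0.26; 0.62 and 0.185) did not pass. Cth, whose trend passed, thus had the lowest Pearson r with Gnmt among the 8, and 0.31 without the 2 samples farthest out. The genes of a sample share its array and its normalisation, and what else varied with the members was not tested.

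**Figure D4:**
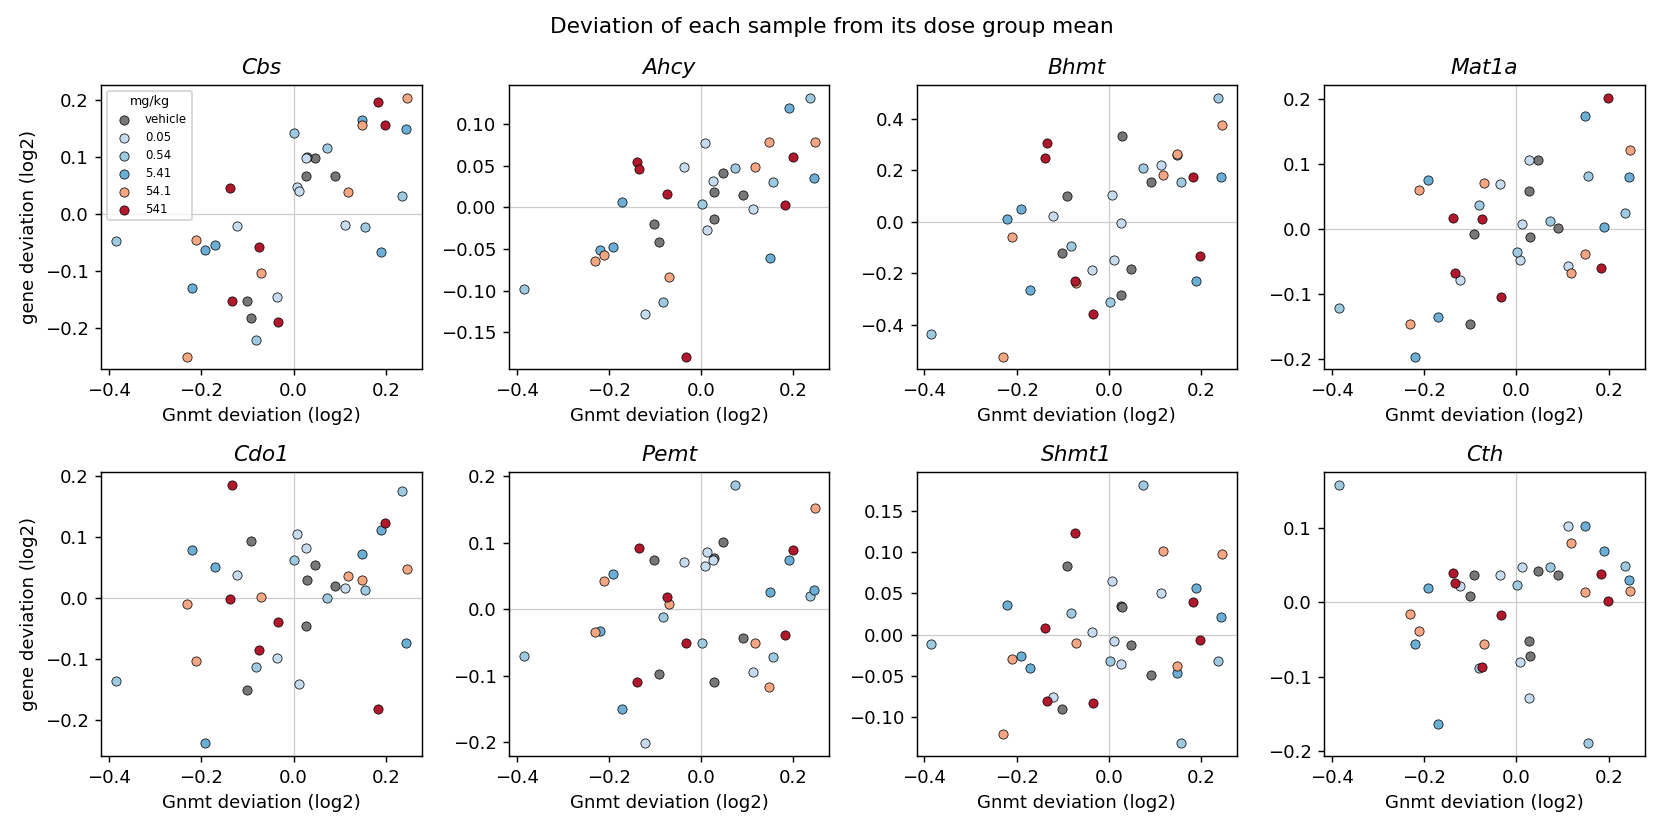
Deviation of each of 36 liver samples from its dose group mean, Gnmt on the horizontal axis and each other member on the vertical axis (log2). Points rise together for Cbs and Ahcy (r = 0.65 and 0.60). Cth has the lowest Pearson r (0.10; rho = 0.26), which is 0.31 without the 2 samples farthest from the median of Gnmt.

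Other genes of the pathway were described by lists. Of the 7 measured of 8 genes for other forms of S-adenosylmethionine supply and hydrolysis, 0 passed at 541 mg/kg, with a median difference of -0.02, and Mat2a, the synthase subunit of the form found mainly outside hepatocytes, had -0.46 (adjusted p = 0.289). Its dimmer probe sets had -0.30 and 0.17. Ahcyl2, a relative of Ahcy, had -0.14 (adjusted p = 0.653), and its dimmer probe set had 0.02. Of 18 measured of 20 folate genes 0 passed (median -0.03), with Aldh1l1, a formyltetrahydrofolate dehydrogenase, at 0.20 and Mthfd2, a mitochondrial folate enzyme, at -0.21 (adjusted p = 0.608 and 0.689). Of 15 measured of 16 choline and phosphatidylcholine genes 0 passed (median -0.0032), with Chka, choline kinase, at -0.53 (adjusted p = 0.321) and Ptdss2 at 0.13 (0.557). Chka had -0.32, -0.28, -0.27 and -0.47 at 0.05, 0.54, 5.41 and 54.1 mg/kg. The dimmer probe sets of Ptdss2 had 0.15 and -0.06 at 541 mg/kg. Of 17 measured of 20 methyltransferases 0 passed (median 0.04), with Carm1 at 0.15 (adjusted p = 0.557) and Inmt at 0.68 (0.577). Inmt had 0.21, 0.72, 0.09 and 0.07 at 0.05, 0.54, 5.41 and 54.1 mg/kg. With 0.155% of all probe sets called, a count of 0 in lists of these sizes is near the background.

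Glycine and serine metabolism had 20 of 22 genes measured, with 0 past the FDR at 541 mg/kg (median -0.04). Glyat, which conjugates glycine, fell by 0.04 per dose step (adjusted p = 0.0312) and had -0.19 at 541 mg/kg (0.189), while Gcat had 0.24 (0.279). Glyat was the 1 of 20 past the FDR for the trend, against 0.715% of all probe sets (0.374% downward). Of 16 genes of cysteine, taurine, sulfide and glutathione, all measured, 0 passed at 541 mg/kg (median -0.0064). Slc6a6, the taurine transporter, fell by 0.11 per step (adjusted p = 0.0488) and had -0.47 at 541 mg/kg (0.264), and Gsr, glutathione reductase, had 0.35 (0.223). Slc6a6 was the 1 of 16 past the FDR for the trend, near its limit. The dimmer probe set of Slc6a6 had -0.09 per step (adjusted p = 0.218). The 15 genes of polyamine synthesis and methionine salvage had 0 past the FDR (median 0.07), with Apip at 0.19 (adjusted p = 0.223) and Mri1 at 0.18 (0.227), both of the salvage route. Of 11 measured of 12 hepatocyte transcription factors 0 passed (median -0.15), with Nr3c1, the glucocorticoid receptor, at -0.29 (adjusted p = 0.176) and Cebpa at -0.46 (0.396). Both also had lower means than vehicle at 0.05, 0.54 and 5.41 mg/kg, with differences of -0.19, -0.25 and -0.29 for Nr3c1 and of -0.34, -0.37 and -0.40 for Cebpa. The dimmer probe set of Nr3c1 had -0.08, -0.02, -0.04 and -0.11 at 0.05, 0.54, 5.41 and 541 mg/kg. The part of these transcription factors in the values of Gnmt was not tested.

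Markers of periportal hepatocytes, the zone around the portal vein, and those of the opposite, pericentral zone were both mostly lower in mean at 541 mg/kg, where 46.7% of all probe sets were lower, against 45.9% at 54.1 mg/kg. The periportal level over 6 markers was 10.24 to 10.68 at 541 mg/kg, 10.29 to 10.65 at 54.1 mg/kg and 10.49 to 10.83 in vehicle livers, with 5 of 6 markers lower in mean at 541 mg/kg and 6 of 6 at 54.1 mg/kg. None passed at either dose, and Hal, which breaks down histidine, fell by 0.07 per step (adjusted p = 0.0378). Hal was the 1 of 6 past the FDR for the trend, against 0.715% of all probe sets (0.374% downward). Pericentral markers had 11.08 to 11.23 at 541 mg/kg, 11.05 to 11.40 at 54.1 mg/kg and 11.14 to 11.40 in vehicle livers, with 5 of 6 lower in mean at 541 mg/kg and 4 of 6 at 54.1 mg/kg, none past the FDR. Among them Glul, glutamine synthetase, had -0.31 at 541 mg/kg (adjusted p = 0.233) and Slc1a2, a glutamate transporter, 0.34 (0.254). At an unadjusted p under 0.05 there were 3 periportal and 4 pericentral markers at 541 mg/kg and 3 and 1 at 54.1 mg/kg. Of all probe sets, 9.07% had one at 541 mg/kg and 9.2% at 54.1 mg/kg. Sinusoidal endothelial markers had 8.25 to 8.47 at 541 mg/kg, 8.35 to 8.77 at 54.1 mg/kg and 8.35 to 8.77 in vehicle livers, with 6 of 6 lower in mean at 541 mg/kg and 2 of 6 at 54.1 mg/kg. The part of these markers in the values of Gnmt was not tested.

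The genes whose values were most like those of Gnmt over the 36 samples, among 9763 genes with a bright probe set, were Phyh (r = 0.79), Ass1 (0.77), Dexi (0.74), Crym (0.71) and Apoc1 (0.70). Within dose groups their r was 0.54, 0.62, 0.48, 0.52 and 0.46. Ass1, a urea cycle enzyme, is also one of the 6 periportal markers. The lowest r belonged to Ugt2b1 (-0.77), a glucuronosyltransferase, Sult2a6 (-0.75), a sulfotransferase, and Cyp2c6v1 (-0.73), a cytochrome P450. Within groups these were -0.25, -0.63 and -0.02, so that Cyp2c6v1 differed from Gnmt between doses with hardly any relation among samples of the same dose. The r over all 36 samples includes the lower values at the high doses for which Gnmt was chosen, so these ranks restate in part that choice and are given as a description. Of the other members, Bhmt ranked 17th (r = 0.66), Cth 59th (0.59), Cdo1 78th, Mat1a 89th, Ahcy 118th, Pemt 166th, Cbs 809th and Shmt1 6906th (-0.12). By the correlation within groups Cbs ranked 17th, Ahcy 79th, Bhmt 264th, Mat1a 283rd and Cth 3824th.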

How the data were processed

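RNA of 36 rat liver samples was measured on 1-colour Affymetrix 3′ arrays. The deposited log2 values were made by the authors with RMA and the affy package, per the submitters' processing notes, which give no versions here. The genome build behind the array annotation is not given in the sources used here. Of 31099 probe sets, 57 controls were left out. Of the 31042 tested, 20826 had 1 gene symbol, 436 several and 9780 none in GEO's platform annotation.

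The study's design text names R/maanova; here 1 mean per group over all 36 samples was estimated by limma (version 3.58.1, under R 4.3.3), contrasts were taken with moderated two-sided tests, and p-values had Benjamini-Hochberg adjustment over all 31042 probe sets and an FDR of 0.05. Where a gene had several probe sets, the brightest stood for it. Correlations used 100000 permutations of samples within groups. The steps were tested on simulated data. Alternatives were leaving out each sample, replicate numbers as a block, arrays centred on their medians, a filter on dim probe sets (mean under 5), array quality weights, another prior and only the groups compared.

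The genes and lists were chosen with earlier results of these data known. Genes were named by a rule: all members, and of each list those past the FDR in any contrast and the 2 with the smallest p at 541 mg/kg. For likeness to Gnmt, the rule took the 5 highest and 3 lowest r. No batch or scan date was used. Promoters are from RefSeq, GRCr8, with 8 of 9 members matched.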

Additional observations from a re-analysis of the deposited data

Results flagged for a closer look

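In 54 groups of 6 samples (9 genes in 6 dose groups), 2 samples lay farther from the others of their group than Dixon's 95% limit allows, and chance flags about 1 group in 20. Ahcy was 12.06 in replicate 4 at 541 mg/kg, where the other 5 samples lay between 12.24 and 12.30. Pemt was 11.57 in replicate 3 at 0.54 mg/kg, where the others lay between 11.31 and 11.40.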

How the results depend on the processing

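Gnmt differed from vehicle by -0.51 to -0.44 at 541 mg/kg and by -0.53 to -0.43 at 54.1 mg/kg when single samples were left out, and by -0.48 to -0.47 and -0.49 to -0.47 under the 6 other settings. No other member passed at either dose under any of these. For the trend, the count of members past the FDR was 2 with replicate numbers as a block (Bhmt, adjusted p = 0.0383, and Cth, 0.0381) and 2 with dim probe sets left out (Bhmt 0.0464, Cth 0.0134), and 0 to 1 when single samples were left out. For the high doses against the lower ones it was 1 with dim probe sets left out, with array weights and with an intensity trend and robust prior, and 0 to 1 when single samples were left out. The cause was not tested.

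With the replicate block, 2 of the 4 correlations with Gnmt remained, Cbs (r = 0.55, adjusted permutation p = 0.0205) and Ahcy (0.46, 0.0444). Mat1a had 0.42 (0.0891) and Bhmt 0.31 (0.165), and Cth turned to -0.0877. Over all probe sets the replicate numbers hardly paired the samples: 24 of 90 same-numbered pairs correlated above 0.1, and 7 of 36 samples correlated best with their own number. These counts are over the whole array and do not speak to single genes. In replicate 4, Gnmt and Cbs lay below the group mean in every group, and the cause was not tested. The trend of Cbs turned to -0.0003 with arrays centred on their medians. Leaving out single samples gave Cbs -0.0307 to 0.0465 at 541 mg/kg, -0.0204 to 0.0702 at 54.1 mg/kg, -0.0045 to 0.0065 per step and -0.0169 to 0.0283 for high against lower doses, Shmt1 -0.0058 to 0.0387 at 54.1 mg/kg, and Ahcy -0.0467 to 0.0012 at 541 mg/kg.

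Over all probe sets, 48 passed at 541 mg/kg (31 to 80 under other settings), 23 at 54.1 mg/kg (17 to 64), 222 for the trend (172 to 376) and 89 for high against lower doses (68 to 150). Leaving out single samples gave 18 to 63, 5 to 36, 85 to 272 and 39 to 117. At 54.1 mg/kg the split was 13 higher and 10 lower, and 7 and 10 with arrays centred.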
